A study of Danio rerio with 16 samples.

Results

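The regions described here are the differential ATAC-seq peaks whose nearest gene carries a family name of FGF, PDGF, IGF, EGF, HGF or Kit signalling or of its feedback inhibitors in the zebrafish embryo. They were picked by the name of the nearest gene alone (names that begin with fgf, spry, spred, dusp, pdgf, igf, egfr, erbb, nrg, hgf, kita, kitb or kitlg, and met), which gave 97 of the 9466 listed peaks, next to 49 genes. Of these peaks, 85 lie next to ligand, receptor, binding protein or inhibitor genes. The other 12 lie next to genes of another role with a matching name (FGF homologous factors, igf2bp genes, erbb2ip and Dusp genes that are not MAP kinase phosphatases). ATAC-seq reads out open chromatin, where Tn5 transposase can insert sequencing adapters. There were 16 libraries, 3 for each of 5 populations sorted at 28 to 30 hpf (2000 to 3000 cells each) and 1 of genomic DNA, from embryos that carried both TgBAC(runx1P2:Citrine) and Tg(kdrl:mCherry), and all sorted libraries are labelled Wt. DP-R1hi cells were positive for kdrl:mCherry with high runx1P2:Citrine and are labelled haemogenic endothelium (HE), whereas DP-R1lo cells were positive for kdrl:mCherry with low Citrine and are labelled aortic endothelium, called aortic roof endothelium (ARE) in the study. Both carry the same transgenes and were sorted from the same kind of embryo. Citrine was placed behind the P2 start of runx1 in a BAC that holds both promoters, and the protein is stable, so that the low gate can hold cells with protein left from an earlier stage. The DN, SP-kdrl and DP-R1med libraries were not analysed here.

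Each listed peak carries 1 mean per population, the authors' log2 concentration of normalised reads, made after 1 of the 3 replicates of each population had been left out. The lists hold no value per replicate, so no SD and no test across replicates can be given, and library depth is unknown. Every listed peak had already been called different by the authors, and the direction and size given below are therefore descriptions. All 6 peaks next to the HE markers myb, gfi1aa and gfi1ab were more open in DP-R1hi, and 15 of 16 peaks next to the arterial and endothelial genes dll4, kdrl, efnb2a and dlc were more open in DP-R1lo. Markers of other cells that the gates could hold (myod1, pdgfra, cdh17, elavl3, gata1a and spi1b) had 4 listed peaks. The 2 more open in DP-R1hi were next to gata1a and spi1b, and the 2 more open in DP-R1lo next to pdgfra and elavl3. The part of such cells in either population was not tested. The lowest value listed was -0.14 for DP-R1hi and -0.27 for DP-R1lo. Where a population was at its lowest value, both levels are given and no fold. Levels are not divided by peak width, so they are compared here between populations at 1 peak and not between peaks.

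FGF, PDGF, IGF, EGF, HGF and Kit ligands act through receptor tyrosine kinases. The activated receptor recruits adaptors that switch on Ras and the MAP kinase cascade, PI3 kinase and phospholipase C gamma, and the cascade in turn induces its own inhibitors, among them Sprouty and Spred proteins and the MAP kinase phosphatases of the Dusp family. In the embryonic trunk, FGF signals pattern the somites that flank the aorta, and PDGF ligands recruit the cells that surround vessels. In mammals, Kit with its ligand sustains blood progenitors.

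The listed peaks next to these genes were mostly more open in DP-R1lo. Of the 97 peaks, 24 (24.7%) were more open in DP-R1hi and 73 (75.3%) in DP-R1lo, against 40.8% and 59.2% of all listed peaks. The share in DP-R1hi was thus lower than over all listed peaks, although peaks of 1 gene are not independent and the difference was not tested. Counted by gene, 9 of 49 genes (18.4%) had peaks more open in DP-R1hi only, 29 (59.2%) in DP-R1lo only and 11 (22.4%) in both directions, against 34.8%, 45.9% and 19.2% of all genes with a listed peak. The median difference of the group means (DP-R1hi minus DP-R1lo, log2) was 3.46 for the peaks more open in DP-R1hi, against 2.70 over all peaks of that list, and -3.92 for those more open in DP-R1lo, against -3.90. The less open population was at its lowest value in 36 of the 97 peaks. These were 7 of the 24 peaks more open in DP-R1hi (29.2%, against 18.8% of that list) and 29 of the 73 more open in DP-R1lo (39.7%, against 36.6%). Without them the medians were 2.92 (17 peaks) and -3.12 (44 peaks), against 2.24 and -2.83 over the lists.

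**Figure D1:**
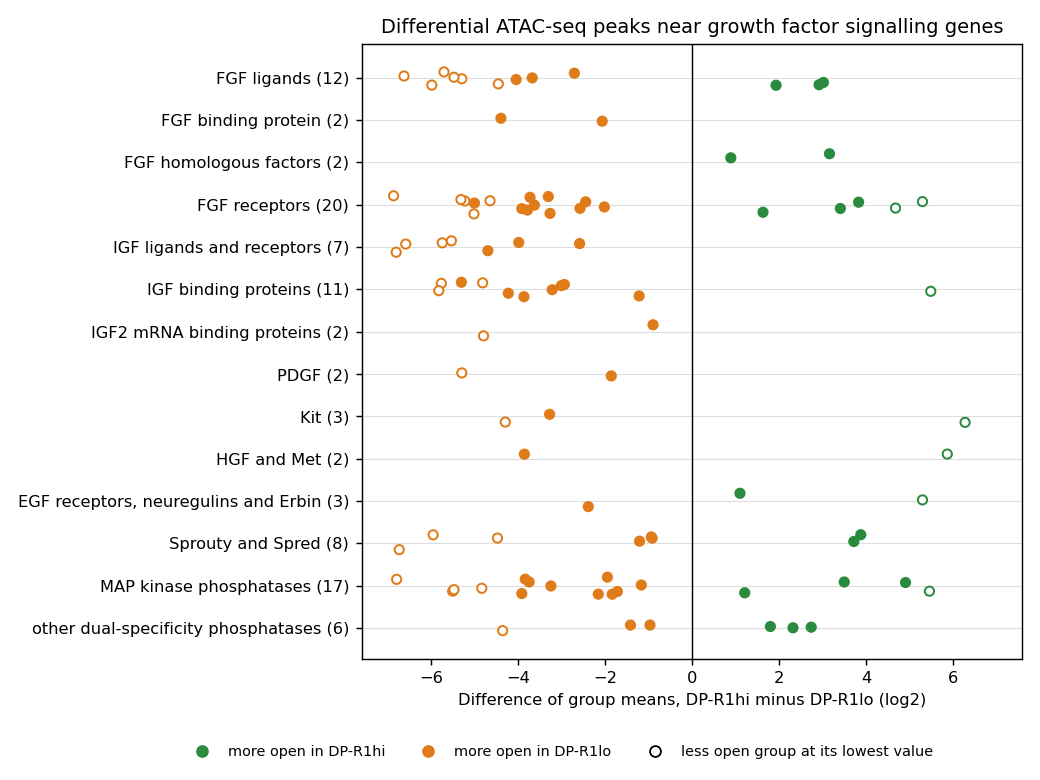
Difference of the group means (DP-R1hi minus DP-R1lo, log2 scale) for each of the 97 peaks, 1 point per peak, in rows by the role of the nearest gene with the number of peaks in brackets. Green points are more open in DP-R1hi and orange points in DP-R1lo, and open points have the less open population at its lowest value; vertical scatter within a row has no meaning. The 73 orange points lie between -6.87 and -0.90 and the 24 green points between 0.89 and 6.28, and the IGF ligand row holds orange points only.

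The FGF ligands had 12 peaks over 10 genes. Of these, 3 were more open in DP-R1hi (25.0%, against 40.8% of all listed peaks) and 9 in DP-R1lo. The only FGF ligand peak at a start site was that of fgf2, which encodes basic FGF, a ligand that stimulates endothelial cells (chr14:549551-550036, GRCz10). It was at the lowest value in DP-R1hi (-0.14), against 5.16 in DP-R1lo. A peak in the 5′ UTR of fgf6a, 0.13 kb from the start site, had 1.35 in DP-R1hi and 5.40 in DP-R1lo. Both peaks at an FGF ligand start were thus more open in the ARE.

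Both fgf18a peaks were at the lowest value in DP-R1hi, the one 1.46 kb upstream of the start site against 5.57 in DP-R1lo and the one in intron 3 of 4 (chr14:2609445-2609900) against 6.49. The peaks next to fgf1b, which encodes acidic FGF, and fgf7 were also at the lowest value in DP-R1hi, against 5.85 and 5.34 in DP-R1lo, and lay 45.3 and 50.4 kb from the start sites. The fgf20a peak had 1.91 in DP-R1hi and 5.59 in DP-R1lo. The 2 peaks of fgf22 were also more open in DP-R1lo, with -0.14 in DP-R1hi and 4.32 in DP-R1lo for the upstream one and 3.43 against 6.14 for the one in intron 1. Over the 9 peaks, 6 had no more than the lowest listed value in DP-R1hi (66.7%, against 36.6% of all peaks more open in DP-R1lo).

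The 3 FGF ligand peaks more open in DP-R1hi belonged to fgf10b, fgf16 and fgf24, of which fgf24 is known for starting the pectoral fin bud. None was at the lowest value in DP-R1lo. The fgf10b peak, in intron 1 of 2, had 7.06 in DP-R1hi and 5.13 in DP-R1lo, a difference of 1.93. The fgf24 peak, 57.2 kb from the start site, had 6.68 and 3.76, a difference of 2.92. The largest of the 3 differences, 3.02, was at the fgf16 peak (5.78 in DP-R1hi and 2.76 in DP-R1lo), which by the annotation lies inside intron 31 of 34 of another gene, atrx.

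Some members of the FGF family do not act as ligands of the receptors. Both peaks of the FGF homologous factors, which stay inside the cell and bind voltage-gated sodium channels, were more open in DP-R1hi. Of all listed peaks, 40.8% were. The fgf13a peak had 6.19 in DP-R1hi and 3.03 in DP-R1lo, and the fgf12b peak 8.25 and 7.36. The FGF carrier gene fgfbp2b instead had 2 peaks more open in DP-R1lo, only 175 bp apart, with 3.86 in DP-R1hi and 5.93 in DP-R1lo for the first and 1.09 and 5.49 for the second.

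The FGF receptor genes held the most peaks, 20 over 6 genes. Of these, 5 were more open in DP-R1hi (25.0%, against 40.8% of all listed peaks) and 15 in DP-R1lo. All 6 peaks of fgfr4 were more open in DP-R1lo, the largest number of peaks among the 49 genes picked by family name. They spread over 136 kb of chromosome 21, from a peak 86.3 kb upstream of the start site (5.04 in DP-R1hi and 7.06 in DP-R1lo) to one 49.2 kb downstream (1.35 and 6.36). The level in DP-R1hi was the lowest listed, -0.14, at the peak 4.83 kb upstream, against 4.51 in DP-R1lo, and at the one in the 3′ UTR, against 5.18. The remaining fgfr4 peaks had 3.25 in DP-R1hi and 6.52 in DP-R1lo in intron 15 of 19 and 2.90 and 6.53 at 29.2 kb. By the annotation, 4 of the 6 lie in intron 8 of 11 of another gene, rbm41. The peaks labelled 3′ UTR and intron 15 lie between these 4 by position, so they may fall within the same rbm41 intron.

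The fgfr1b gene likewise had peaks in 1 direction only, and it was the only FGF receptor with a listed peak at the start site. That promoter peak (chr10:42760791-42761332) had 4.35 in DP-R1hi and 6.80 in DP-R1lo, a difference of -2.45. The peak 20.1 kb upstream had 3.15 and 7.07, and the one in intron 1 was at the lowest value in DP-R1hi, against 5.09 in DP-R1lo. All 3 were lower in DP-R1hi, and the promoter differed least.

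At fgfr2, fgfr3, fgfrl1a and fgfrl1b the direction changed along the gene. For fgfr2, the peaks 8.52 and 38.5 kb upstream were at the lowest value in DP-R1hi, against 4.88 and 6.73 in DP-R1lo (the second at chr13:46331291-46331729). The peak in intron 5 of 17 had 5.11 in DP-R1hi and 1.70 in DP-R1lo. Thus the listed fgfr2 peaks upstream were more open in the ARE, and the listed one within the gene in the HE.

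The peak of fgfr3 in intron 5 of 17 had 1.56 in DP-R1hi and 5.29 in DP-R1lo, and an intergenic peak 89.5 kb downstream of the start site had 2.83 and 5.41. Between them, the peak at the transcript end had 4.41 in DP-R1hi and was at the lowest value, -0.27, in DP-R1lo. The fgfrl1 genes encode a receptor without a kinase domain. In intron 2 of fgfrl1a, the peak nearest to the start site (21.1 kb) had 1.73 in DP-R1hi and 5.04 in DP-R1lo. The other 2 peaks of the same intron, 2.27 kb apart, were more open in DP-R1hi, with 5.03 against -0.27 and 7.21 against 5.58. Its paralogue fgfrl1b had 3.33 in DP-R1hi and 7.12 in DP-R1lo at a peak in intron 1 and, 66.9 kb upstream of the start site, 5.34 and 1.51. In both fgfrl1 genes, the peak closest to the start site was therefore the one more open in the ARE. The 5 receptor peaks more open in DP-R1hi all lay more than 50 kb from the nearest start site, at 55.5 to 77.8 kb. Of the 15 more open in DP-R1lo, 13 lay within 50 kb. Over the lists, 65.6% of the peaks more open in DP-R1hi and 62.7% of those more open in DP-R1lo lay within 50 kb. Of the 5 receptor peaks, 2 share 1 intron of fgfrl1a, and the difference was not tested.

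**Figure D2:**
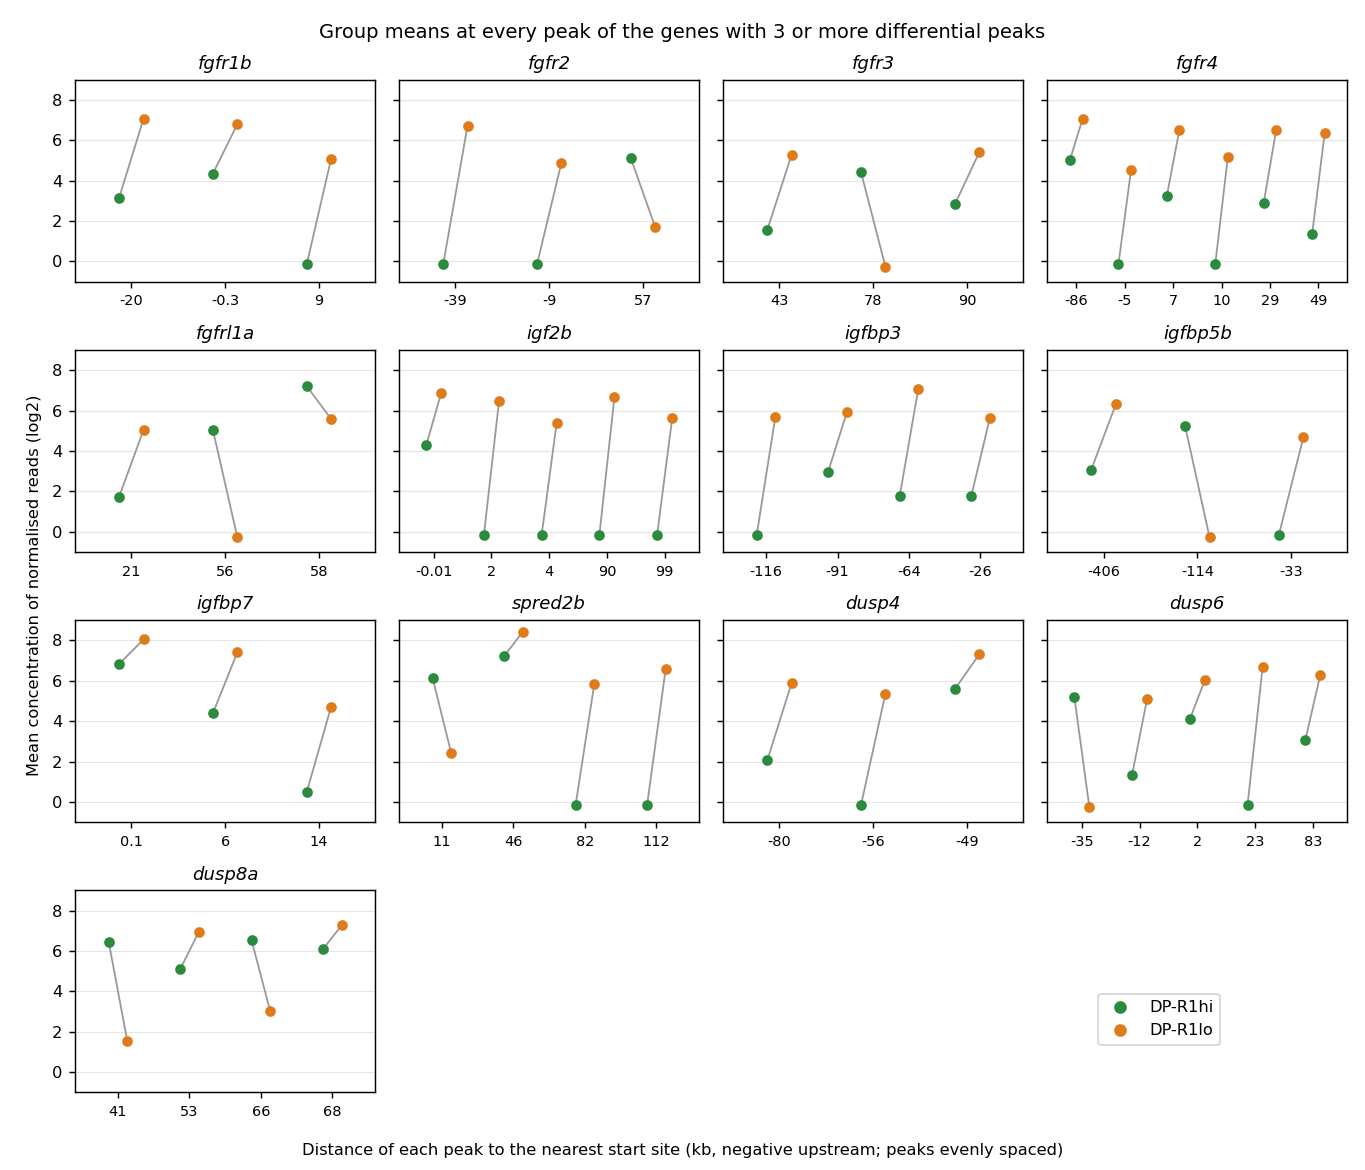
Mean concentration of normalised reads (log2, vertical axis) in DP-R1hi (green, left) and DP-R1lo (orange, right) at every peak of the 13 genes with 3 or more listed peaks, joined by a line per peak; each point is 1 group mean without an error. The horizontal axis gives the distance of each peak to the nearest start site in kb (negative upstream), evenly spaced. All 6 fgfr4 peaks and all 5 igf2b peaks have the orange point above the green one, whereas in dusp8a the order alternates along the gene.

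The IGF ligand genes had peaks more open in DP-R1lo only, 7 over igf2a and igf2b, both of which encode growth-promoting ligands of the IGF receptors. Of all listed peaks, 59.2% were more open in DP-R1lo. The igf2b promoter peak (chr25:23949087-23949582) had 4.29 in DP-R1hi and 6.88 in DP-R1lo, a difference of -2.59. The other 4 igf2b peaks were all at the lowest value in DP-R1hi. They had 6.45 in DP-R1lo in intron 2 of 3, 5.40 in intron 3, and 6.67 and 5.61 at the peaks 89.6 and 98.6 kb away. Around igf2b, DP-R1hi was thus above its lowest value at the promoter and not at the other listed peaks. The 2 igf2a peaks were distal, at 120 and 314 kb, with 0.79 in DP-R1hi and 5.49 in DP-R1lo for the nearer one and 1.75 and 5.74 for the farther one. Their assignment to igf2a rests on the nearest start site alone, and only 3 of the 7 IGF ligand peaks lay within 50 kb.

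The IGF binding proteins are secreted and bind IGF ligands outside the cell. Their genes had 11 peaks, 1 more open in DP-R1hi (9.09%, against 40.8% of all listed peaks) and 10 in DP-R1lo. At igfbp7, known from the vessel wall, a peak in exon 1 (chr14:51653353-51654146) had 6.83 in DP-R1hi and 8.05 in DP-R1lo, a difference of -1.22. The other igfbp7 peaks differed more, with 4.40 and 7.41 in intron 2 and 0.49 and 4.72 at 13.6 kb. As in fgfr1b and igf2b, the peak at the start of the gene differed least.

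All 4 igfbp3 peaks lay upstream. The most distant, 116 kb from the start site, was at the lowest value in DP-R1hi, against 5.69 in DP-R1lo. Those at 91.2, 63.7 and 26.2 kb had 2.98, 1.77 and 1.75 in DP-R1hi and 5.92, 7.08 and 5.62 in DP-R1lo. The igfbp1a peak was on the same chromosome 20 stretch and was at the lowest value in DP-R1hi, against 5.63 in DP-R1lo. No peak of the other direction was listed within these 244 kb, where all 5 listed peaks were more open in the ARE.

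The igfbp5b gene had the only binding protein peak more open in DP-R1hi. It lay 114 kb upstream (chr9:47155949-47156278) with 5.22 in DP-R1hi and the lowest value, -0.27, in DP-R1lo. The peaks on either side went the other way, with -0.14 in DP-R1hi and 4.68 in DP-R1lo at 33.4 kb upstream and 3.08 and 6.30 at 406 kb upstream. The igf2bp genes encode RNA-binding proteins and no part of the IGF pathway at the cell surface. Their peaks were in introns and more open in DP-R1lo, with 7.46 in DP-R1hi and 8.36 in DP-R1lo at igf2bp1 and -0.14 and 4.66 at igf2bp2a.

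Both PDGF peaks were more open in DP-R1lo, as were 59.2% of all listed peaks. The pdgfab gene encodes a PDGF A ligand, and its peak 12.1 kb upstream was at the lowest value in DP-R1hi, against 5.16 in DP-R1lo. For the receptor gene pdgfra, the peak 9.61 kb upstream had 4.67 in DP-R1hi and 6.53 in DP-R1lo, a difference of -1.86. The pdgfra gene is also a marker of sclerotome and neural crest, and the part of such cells in this value was not tested.

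The Kit receptor gene kita had 1 peak (chr20:22432071-22433058), 46.2 kb from the start site, with 3.38 in DP-R1hi and 6.66 in DP-R1lo. It lies on the same chromosome as the pdgfra peak, and no other listed peak falls between them. The ligand gene kitlga instead had 1 peak in each direction. Its promoter (chr25:18043943-18044339) was at the lowest value in DP-R1hi, against 4.16 in DP-R1lo. An intergenic peak 71.0 kb upstream (chr25:18114756-18115108) had 6.01 in DP-R1hi and was at the lowest value, -0.27, in DP-R1lo.

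The gene of the HGF receptor, met, had the same arrangement of 1 peak each way. The peak 3.47 kb upstream had 1.75 in DP-R1hi and 5.61 in DP-R1lo. The peak in intron 9 of 19 had 5.60 in DP-R1hi and -0.27 in DP-R1lo. Among the EGF family, the peak next to the neuregulin gene nrg2b was more open in DP-R1lo, with 3.69 in DP-R1hi and 6.08 in DP-R1lo. Both peaks of erbb2ip, now named erbin, which encodes a scaffold that binds the Erbb2 receptor, were in intron 1 of 23 and more open in DP-R1hi, with 5.03 against -0.27 and 7.58 against 6.48. No Erbb receptor gene, no hgf gene and no igf1 receptor gene was nearest to a listed peak, and neither were pdgfrb, fgfr1a, fgf8a, kitb or spry1. Of 138 gene names of these families in the RefSeq table, 90 had no listed peak. Among protein-coding genes with a curated RefSeq transcript, 48 of 114 of these families (42.1%) had one, against 32.1% of all such genes. The difference was not tested, and the families were chosen with earlier results of these data known. The lack of a listed peak does not show that the genes were equally open in both populations.

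Sprouty and Spred proteins restrain Ras and Raf below the receptors. Their genes had 2 peaks more open in DP-R1hi (25.0%, against 40.8% of all listed peaks) and 6 in DP-R1lo. The spry4 promoter (chr21:44610451-44611871) was well covered in both populations, with 7.93 in DP-R1hi and 8.85 in DP-R1lo, a difference of -0.92. The second spry4 peak, 30.6 kb upstream, was at the lowest value in DP-R1hi, against 4.34 in DP-R1lo. The spred1 peak in intron 1, 0.427 kb from the start site, had 7.17 in DP-R1hi and 8.11 in DP-R1lo, a difference of -0.94.

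The spred2b gene changed direction along its length. Beyond the gene, the peaks 81.9 and 112 kb from the start site were at the lowest value in DP-R1hi, against 5.82 and 6.60 in DP-R1lo. The peak in intron 4 of 7 had 7.22 in DP-R1hi and 8.43 in DP-R1lo. In intron 1, 11.3 kb from the start site, the order was turned round, with 6.12 in DP-R1hi and 2.40 in DP-R1lo. The only spry2 peak was also more open in DP-R1hi (6.16 and 2.28), but it lay 308 kb upstream, where the assignment to spry2 rests on the nearest start site alone.

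The MAP kinase phosphatases, which take phosphate off MAP kinases, had 17 peaks over 7 genes. Of these, 4 were more open in DP-R1hi (23.5%, against 40.8% of all listed peaks) and 13 in DP-R1lo. The dusp6 gene encodes a cytoplasmic MAP kinase phosphatase that FGF signals induce in many tissues. Of its 5 peaks, 4 were more open in DP-R1lo. The one in intron 2, 2.04 kb from the start site, had 4.09 in DP-R1hi and 6.04 in DP-R1lo, and the one 23.3 kb downstream was at the lowest value in DP-R1hi, against 6.66 in DP-R1lo. The peaks 82.7 kb downstream and 11.9 kb upstream had 3.05 and 1.35 in DP-R1hi and 6.30 and 5.10 in DP-R1lo. The fifth, 35.0 kb upstream (chr25:18268902-18269207), had 5.19 in DP-R1hi and -0.27 in DP-R1lo.

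The dusp5 gene encodes a nuclear MAP kinase phosphatase. A peak in its exon 2 of 4, 1.34 kb from the start site, had 7.50 in DP-R1hi and 6.29 in DP-R1lo and was the peak closest to a start site among the 24 more open in DP-R1hi. A peak 4.49 kb upstream of dusp5 was at the lowest value in DP-R1hi, against 5.34 in DP-R1lo. All 3 peaks of dusp4 were upstream and more open in DP-R1lo, with 5.59, -0.14 and 2.06 in DP-R1hi and 7.31, 5.37 and 5.90 in DP-R1lo at 49.1, 56.2 and 80.2 kb. The peaks of dusp1, dusp2 and dusp16 were more open in DP-R1lo too. They had 5.71, 1.77 and -0.14 in DP-R1hi and 7.87, 5.69 and 4.70 in DP-R1lo.

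In dusp8a, whose product acts mainly on Jnk and p38, 4 peaks alternated within intron 3 of 6 over 27.7 kb. The peaks 40.9 and 66.1 kb from the start site had 6.47 and 6.53 in DP-R1hi and 1.56 and 3.03 in DP-R1lo. The peaks at 53.2 and 67.8 kb had 5.09 and 6.10 in DP-R1hi and 6.93 and 7.27 in DP-R1lo. The closest pair of opposite direction, at 66.1 and 67.8 kb, was separated by 0.807 kb. The peaks of Dusp genes outside the MAP kinase phosphatases were split evenly (50.0% more open in DP-R1hi, against 40.8% of all listed peaks). Both dusp23b peaks (7.48 and 6.25 in DP-R1hi, 5.16 and 3.51 in DP-R1lo) and the dusp22b peak (7.34 and 5.54) were more open in DP-R1hi. Both dusp23a peaks (6.62 and 5.56 in DP-R1hi, 7.59 and 6.98 in DP-R1lo) and the dusp11 peak (-0.14 and 4.22) were more open in DP-R1lo.

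**Figure D3:**
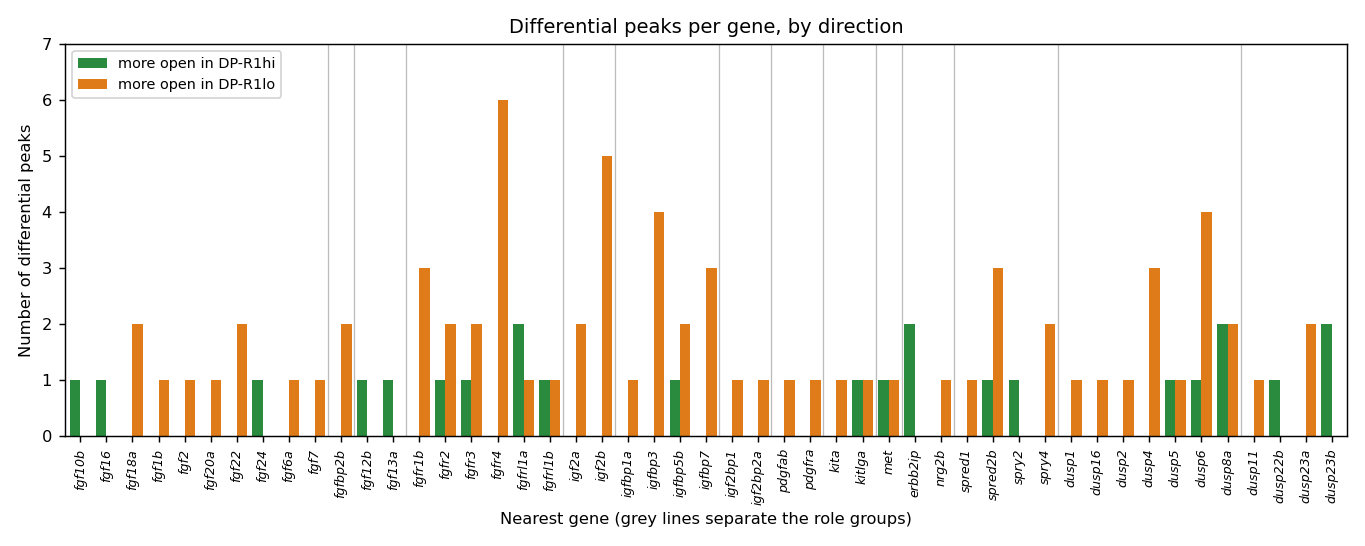
Number of listed peaks per nearest gene (vertical axis, count) for the 49 genes, with peaks more open in DP-R1hi in green to the left of those more open in DP-R1lo in orange; grey lines separate the role groups. The tallest bar is the 6 peaks of fgfr4, all more open in DP-R1lo, and 11 genes have bars of both colours.

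The genes kitlga, dusp6 and met lie in this order on chromosome 25, and their 9 peaks fall within 507 kb (chr25:18043943-18550598). In order along the chromosome, the kitlga promoter was more open in DP-R1lo, the distal kitlga peak in DP-R1hi, the next 4 peaks, all of dusp6, in DP-R1lo and the last dusp6 peak in DP-R1hi. Of the met peaks, the first was more open in DP-R1lo and the second in DP-R1hi. Each of the 3 peaks more open in DP-R1hi had the lowest listed value, -0.27, in DP-R1lo. The only other listed peak of this stretch, between the peaks of dusp6 and met, belonged to poc1b. It was more open in DP-R1lo (5.47 in DP-R1hi and 6.99 in DP-R1lo). The assignment of the distal peaks to kitlga, dusp6 or met rests on distance and was not tested.

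Over the genes with 2 or more peaks, 11 of 25 (44.0%) had peaks in both directions, against 45.1% of all such genes, so that mixed genes were about as frequent here as elsewhere in the lists. They were fgfr2, fgfr3, fgfrl1a, fgfrl1b, igfbp5b, kitlga, met, spred2b, dusp5, dusp6 and dusp8a. Of the 48 pairs of peaks that follow each other next to 1 gene, 33 (68.8%) had the same direction, against 68.4% of all such pairs in the lists.

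At and near start sites the peaks were more open in DP-R1lo. All 5 peaks that HOMER placed at a start site, those of fgf2, fgfr1b, igf2b, kitlga and spry4, were more open in DP-R1lo, against 52.0% of all listed peaks at a start site. Within 1 kb of a start site there were 3 more (fgf6a, igfbp7 and spred1), and all 8 were more open in DP-R1lo, against 54.7% of all listed peaks at that distance. These are few peaks, and the difference was not tested. The peaks more open in DP-R1hi had a median distance of 54.7 kb and those more open in DP-R1lo of 30.6 kb, against 28.8 kb and 32.9 kb over the lists. Within 50 kb lay 11 of the 24 (45.8%) and 47 of the 73 (64.4%), against 65.6% and 62.7% over the lists. Of these 58 peaks 11 were thus more open in DP-R1hi, where 41.9% of all listed peaks within 50 kb were.

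**Figure D4:**
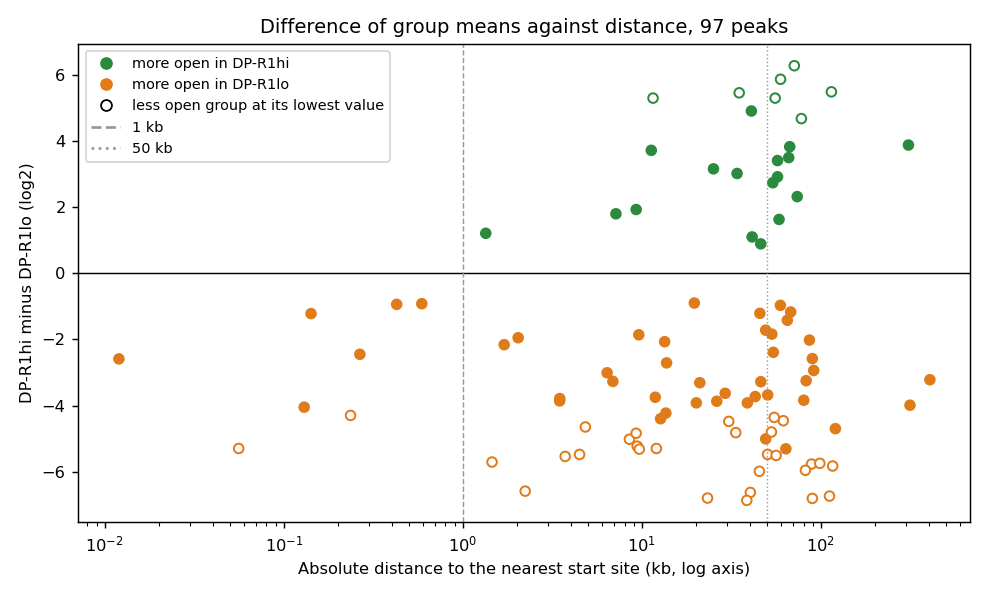
Difference of the group means (DP-R1hi minus DP-R1lo, log2) against the absolute distance to the nearest start site (kb, log axis), 1 point per peak, with green points more open in DP-R1hi, orange points more open in DP-R1lo and open points where the less open population is at its lowest value. Left of the dashed line at 1 kb all 8 points are orange, and the green point closest to a start site is at 1.34 kb.

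By annotation, 47 of the 97 peaks (48.5%) were intergenic and 39 (40.2%) in introns, against 62.8% and 24.8% of all listed peaks. Of the peaks more open in DP-R1hi, 14 of 24 (58.3%) were in introns, against 24.3% of that list. Of those more open in DP-R1lo, 25 of 73 (34.2%) were, against 25.2%. Among all listed intron peaks 40.0% were more open in DP-R1hi, against 14 of the 39 here. The median width was 485 bp, against 481 bp over all listed peaks.

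Outside the named families, 39 of 112 further genes of the pathways had a listed peak. The 112 include co-receptors, other growth factor receptors and EGF family ligands besides genes downstream of the receptors. Of the 39, 14 had peaks more open in DP-R1hi only (35.9%), 19 in DP-R1lo only (48.7%) and 6 in both directions (15.4%). These shares were near the 34.8%, 45.9% and 19.2% of all genes with a listed peak. With a curated RefSeq transcript, 39 of 69 (56.5%) had a listed peak, against the 32.1% of all such genes, which was not tested either. The list was chosen with earlier results of these data known, so the higher share cannot be read as enrichment of the pathways. Their 74 peaks were divided into 26 more open in DP-R1hi (35.1%, against 40.8% of all listed peaks) and 48 in DP-R1lo. The transcriptional targets and modulators of FGF signalling had 4 peaks more open in DP-R1hi (22.2%, against 40.8% of all listed peaks) and 14 in DP-R1lo. Among them, all 5 peaks of etv4, an ETS factor induced by FGF, were more open in DP-R1lo, with 3.05 to 5.82 in DP-R1hi and 5.93 to 8.10 in DP-R1lo. The il17rd gene encodes the FGF antagonist Sef, and its peak in the gene, 4.61 kb from the start site, had 3.81 in DP-R1hi and 6.34 in DP-R1lo. The etv5b peak went the other way, with 4.36 in DP-R1hi and -0.27 in DP-R1lo.

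The genes of the membrane proteins Flrt2 and Flrt3, of which Flrt3 partners FGF receptors in the frog embryo, had peaks in both directions. For flrt3, 2 peaks were more open in DP-R1hi (6.06 and 6.36 in DP-R1hi, against 3.73 and 2.18 in DP-R1lo) and 4 in DP-R1lo (3.30, -0.14, 2.30 and -0.14 in DP-R1hi, against 6.75, 6.28, 5.93 and 6.20 in DP-R1lo). For flrt2, 1 peak was more open in DP-R1hi (4.23, against -0.27 in DP-R1lo), and 3 were more open in DP-R1lo (6.46, -0.14 and 4.77 in DP-R1hi, against 7.50, 7.55 and 7.25 in DP-R1lo). These 10 peaks lay 3.49 to 634 kb from the start sites, so that the assignment of the farthest rests on distance alone. The flrt3 peaks are annotated as in introns, including those upstream of the flrt3 start site. Which gene holds the introns of these upstream peaks was not examined.

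The other receptors and EGF family ligands of the list had 5 peaks (csf1ra, insra, insrb and hbegfb), all more open in DP-R1lo, as were 59.2% of all listed peaks. The hbegfb peak is annotated as in an intron although it lies 2.11 kb upstream of the hbegfb start site. Adaptor genes had 8 peaks more open in DP-R1hi (57.1%, against 40.8% of all listed peaks) and 6 in DP-R1lo. Both peaks of irs2a, which encodes a docking protein of insulin and IGF receptors, were more open in DP-R1hi. So were both of cbl, a ubiquitin ligase that removes activated receptors, and both of ptpn11b, a phosphatase needed for Ras activation. The ptpn11b peaks are annotated as in introns, 141 kb upstream and 44.1 kb downstream of its start site. Which gene holds the intron of the upstream peak was not examined. The irs2a peaks had 5.57 and 6.70 in DP-R1hi and 2.81 and 3.79 in DP-R1lo. The gab1 gene encodes a docking protein of several of these receptors. Its promoter had 4.88 in DP-R1hi and 6.92 in DP-R1lo, its upstream peak -0.14 and 5.83 and 1 intron peak 5.33 and 7.31, whereas a second intron peak had 7.80 in DP-R1hi and 6.74 in DP-R1lo.

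The Ras and MAP kinase genes had 6 peaks more open in DP-R1hi (37.5%, against 40.8% of all listed peaks) and 10 in DP-R1lo. The 10 include both hrasb peaks, 378 and 382 kb from the start site, where the assignment rests on distance alone. All 3 kras peaks were more open in DP-R1lo, with 1.09, 4.15 and 3.34 in DP-R1hi and 5.67, 7.18 and 6.28 in DP-R1lo, and so were the 3 of rps6ka3b, which encodes a kinase at the end of the cascade (3.94, 0.49 and -0.14 in DP-R1hi, 6.98, 4.70 and 4.93 in DP-R1lo). At start sites, the 112 further pathway genes had 1 peak more open in DP-R1hi and 3 in DP-R1lo. Of all listed peaks at a start site, 52.0% were more open in DP-R1lo. The 1 peak was at the promoter of rasgrp4, a Ras activator of blood cells in mammals (6.38 in DP-R1hi and 4.27 in DP-R1lo).

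Of the PI3 kinase and Akt genes, 6 peaks were more open in DP-R1hi (40.0%, near the 40.8% of all listed peaks) and 9 in DP-R1lo. The 4 peaks of pik3r3b, a regulatory subunit, were more open in DP-R1lo (3.89, 0.49, 2.32 and -0.14 in DP-R1hi, 6.10, 5.07, 5.97 and 4.70 in DP-R1lo). They were intergenic and lay 227, 107, 47.7 and 119 kb from the start site, so that their assignment to pik3r3b rests on distance alone. The promoters of akt2l (4.05 in DP-R1hi and 6.37 in DP-R1lo) and of ptena, a phosphatase that opposes PI3 kinase (7.87 and 8.60), were more open in DP-R1lo. The phospholipase C gamma genes had 2 peaks more open in DP-R1hi (33.3%, against 40.8% of all listed peaks) and 4 in DP-R1lo. Both plcg1 peaks were more open in DP-R1lo (4.34 and 4.25 in DP-R1hi, 6.19 and 7.21 in DP-R1lo). The plcg2 gene, used mainly by blood cells in mammals, had peaks in both directions. Its 2 peaks more open in DP-R1hi had 7.06 and 7.16 in DP-R1hi, against 5.18 and 3.62 in DP-R1lo. Its 2 peaks more open in DP-R1lo had -0.14 and 3.05 in DP-R1hi, against 4.28 and 6.52 in DP-R1lo. The plcg2 peak with 3.05 and 6.52 lay 502 kb from the start site, where the assignment rests on distance alone.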

How the data were processed

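The authors trimmed the ATAC-seq reads (Trimmomatic 0.32), aligned them to GRCz10 (BWA 0.7.12), called peaks against genomic DNA, removed 1 replicate each of DP-R1hi and DP-R1lo, compared the populations in DiffBind with edgeR, annotated peaks with HOMER (3.0) and kept absolute log2 fold changes over 0.7. The deposited lists have no header. Their concentration columns were read as the authors' log2 means over both populations, in DP-R1hi and in DP-R1lo. The first equalled the log2 of the mean of the linear group means within 0.01. Which column is which population was inferred from the list each peak is in, and the scaling of libraries is not given in the sources used here. The deposited fold change column was not used, and differences were computed from the group means. Distances in bp to the nearest start site, nearest genes and coordinates are as deposited, and width is end minus start.

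Peaks were chosen by gene symbol and described by counts and medians beside those of all listed peaks, with no test. Peaks and gene lists were chosen with earlier results of these data known. Values are given for genes with 3 or more peaks, for peaks at a start site, for the largest difference per role and direction and for all Kit, Met and PDGF peaks. The other genes had to be named only, and the values given for them were added after they had been seen. Of the 50 RefSeq accessions, 49 matched a name in a GRCz12tu table, used for names only, and of the 112 further pathway genes 109 did. The values of 1 pathway gene are not reported here. No genome sequence was used, and a planned search of promoters for motifs was not run. The selection was tested on simulated names. Tables were made with pandas 2.3.3 in Python 3.11.15 and figures with matplotlib 3.10.9.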

Additional observations from a re-analysis of the deposited data

How the results depend on the processing

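No paired analysis was possible because each peak has a single mean per population. Leaving out replicates in turn was not run, as single libraries are not in these means, and replicate error and depth are unknown. The share of peaks more open in DP-R1hi, 24.7% as reported, was 22.8% with an absolute difference of at least 2, 27.9% without peaks at the lowest value, 24.5% with 1 peak per gene, 20.0% for core members (without FGF homologous factors, igf2bp, erbb2ip and the Dusp genes outside the MAP kinase phosphatases) and 23.2% with current names, which removed erbb2ip. Over all listed peaks, the first 3 of these settings gave 35.6%, 46.9% and 44.4%. With an absolute difference of at least 1 the counts were 23 and 69, against 39.5% of all such peaks in DP-R1hi. Fewer peaks enter by construction, and the counts of peaks more open in DP-R1hi and in DP-R1lo were 11 and 47 within 50 kb and 12 and 37 with 1 peak per gene. Without peaks at the lowest value, 44 peaks more open in DP-R1lo were left, with a median difference of -3.12. Leaving out the 8 peaks inside another gene, chosen after seeing the data, gave 25.8%. Among the counts by role group under these settings, 175 stayed within 1.5 times and 49 did not. The 175 include counts that were 0 as reported and under every setting, such as PDGF peaks more open in DP-R1hi, which say nothing about stability.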

Other observations

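By the deposited annotation, 42 of the 97 peaks lay at or in the gene whose start site is nearest, and 8 lay in the body of another gene (43.3% and 8.25%, against 30.3% and 6.54% of all listed peaks). A peak inside a gene without a matched name counts as neither, unless the same transcript is also the nearest. Of these 8, 7 were more open in DP-R1lo, where 61.1% of all such listed peaks and 75.3% of the 97 were. Intron 8 of 11 of rbm41 was the label of 4 of the 6 fgfr4 peaks, and intron 18 of 19 of adcy1a that of the igfbp1a peak. Intron 23 of 24 of polr2b was given for 1 igfbp7 peak and an intron of tcf7l1a for the dusp11 peak. The fgf16 peak in atrx was the only one of the 8 more open in DP-R1hi. Whether any of these peaks acts on the gene inside which it lies was not tested.

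The more open population was at 4.16 or above in each of the 97 peaks, so a peak with a small difference has signal in both populations by construction. Of the 5 peaks with an absolute difference under 1, 4 were more open in DP-R1lo, at the spry4 promoter, in spred1, in igf2bp1 and next to dusp23a. The remaining 1, in fgf12b, was more open in DP-R1hi. Over all listed peaks 59.2% were more open in DP-R1lo, and the share among those with a difference under 1 was not computed.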
